A study of Mus musculus with 3 samples.

Results

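The 10 genes described here encode the muscle acetylcholine receptor and the proteins that gather it at the nerve contact. They were taken by symbol, with no threshold on a measured value, out of the 35562 genes to which the listed transcripts of 3 edited myoblast lines were assigned. Chrna1, Chrnb1, Chrnd, Chrng and Chrne encode the alpha, beta, delta, gamma and epsilon subunits of the receptor. Rapsn, Musk, Dok7, Lrp4 and Agrn encode rapsyn, the kinase MuSK, its adaptor DOK7, the agrin receptor LRP4 and agrin. The RNA came from cultured myoblasts, purified by FACS according to the study, the progeny of satellite cells, of the genotype Dmdmdx; Pax7-nGFP. The donor iPSCs carried the mdx mutation of dystrophin together with a Pax7-driven nuclear GFP reporter, and CRISPR/Cas9 editing was used to correct that mutation. These iPSCs had been reprogrammed from fibroblasts with a STEMCCA cassette and were injected into mouse blastocysts. The hosts used in the study carried Rosa26 lsl-DTA, among them hosts with Pax7 Cre/ERT2, so that tamoxifen can ablate host cells that express Pax7. Part of those chimeras received tamoxifen in the first days after birth. Other hosts carried a constitutive Pax7 Cre, which needs no tamoxifen, or no Cre. Myoblasts were then grown from satellite cells sorted from postnatal muscle of the resulting intraspecies chimeras. Lines 66, 67 and 72 carry the same labels and form 1 condition (n = 3). The labels do not give the host genotype, the chimera, its age or sex, or the tamoxifen treatment of a line, and nothing states that the lines came from separate animals. No nerve, myotube or muscle sample was analysed here, so every value describes cultured myoblasts and no test between conditions was possible.

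The muscle receptor is a ring of 5 subunits that opens when nerve-released acetylcholine binds. It holds 2 alpha subunits with 1 beta and 1 delta subunit, and its last place is taken by the gamma subunit in fetal or denervated muscle and by the epsilon subunit in innervated adult muscle. At the synapse, agrin from the motor neuron binds LRP4, which activates MuSK together with DOK7, and rapsyn then holds the receptors in clusters under the nerve ending. Myogenic factors of the MyoD family switch on most of these genes when myoblasts differentiate, before any nerve arrives.

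The total of estimated counts per library lay between 66972426 and 73274315. A count of 0 in these libraries allows up to 3 counts, which is between 0.0409 and 0.0448 CPM, that is counts per 1000000 counts of the library. Levels are given in TPM, a value corrected for transcript length and scaled to 1000000 per library, so that levels of different genes can be compared. The myoblast label was checked with 6 markers (Pax7, Myf5, Myod1, Des, Itga7 and Cdh15), all of which had at least 10 TPM in every line, with summed levels of 1977, 1902 and 1809 TPM in lines 66, 67 and 72. The 6 markers of differentiating myocytes (Myog, Mymk, Mymx, Myh3, Acta1 and Ckm) were also present and summed to 806, 1101 and 1394 TPM. In bulk RNA, more cells of a type and more RNA per cell cannot be told apart. Of 8 motor neuron markers, Slc18a3 and Mnx1 were at 0 counts in each library and Chat reached at most 1 count, whereas Tubb3 made up most of the summed level of 41.5 to 53.0 TPM. Nefl had 803, 459 and 347 counts and Isl1 65, 123 and 120 counts in lines 66, 67 and 72, and the remaining Slc5a7 and Snap25 stayed below 1 TPM. Of 6 Schwann cell markers, Sox10, Cdh19 and S100b had at most 2 counts in any line and the list summed to between 3.80 and 10.2 TPM, most of it Mbp. Fibroblast markers summed to between 146 and 270 TPM through Col3a1, with Lum and Dpt at a count of 0. The 6 endothelial and immune markers summed to at most 5.17 TPM.

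Of the 10 genes, 9 had at least 1 TPM in every line, Chrne being the exception, where 33.8% of the 35562 genes reached that level. The same 9 genes also had at least 10 TPM in every line, against 22.6% of all genes. The 5 receptor subunits spanned the widest range. Chrna1, whose product forms the acetylcholine binding site with a neighbouring subunit, had 515, 536 and 528 TPM in lines 66, 67 and 72, a mean of 526 ± 10.8 TPM (SD, n = 3). It was the highest of the 10 genes in each line and its mean lay above that of 99.0% of the 25510 genes found above 0 TPM in any line. Its spread was the smallest of the 10 genes, with a coefficient of variation of 2.05% over the lines. Chrng had 271, 193 and 262 TPM (mean 242 ± 42.7 TPM), with the lowest level in line 67. Chrnb1, the beta subunit, which is phosphorylated after MuSK activation, had 221, 184 and 168 TPM (mean 191 ± 27.3 TPM), with the highest level in line 66. Chrnd had 119, 111 and 106 TPM (mean 112 ± 6.73 TPM). The highest and lowest lines of Chrnd differed 1.13-fold. In contrast, Chrne had 0.307, 0.125 and 0.0542 TPM in lines 66, 67 and 72, from 6, 5 and 3 counts, and its mean lay above that of 35.9% of detected genes.

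**Figure D1:**
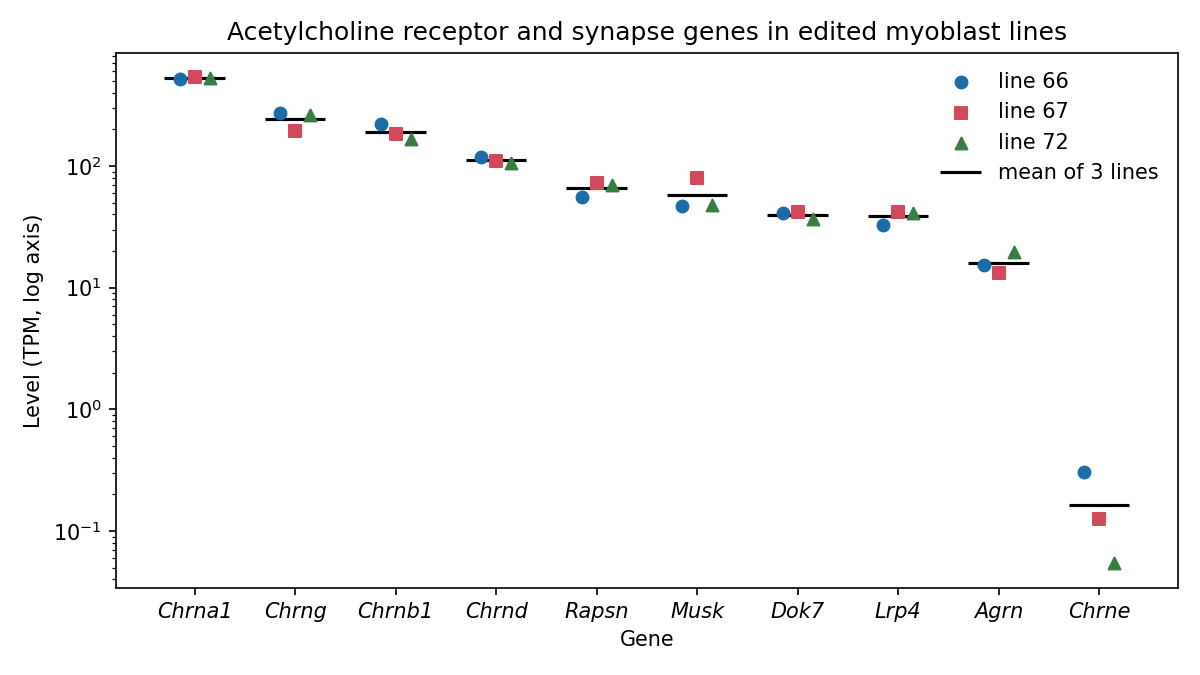
Levels of the 10 genes in TPM on a log axis, with 1 point per line (66, 67 and 72) and a bar for the mean of the 3 lines. The points of Chrne lie between 0.0542 and 0.307 TPM, while those of the other 9 genes lie between 13.3 TPM (Agrn in line 67) and 536 TPM (Chrna1 in line 67).

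The clustering genes were lower than the receptor subunits other than Chrne and closer to each other. Rapsn had 55.3, 72.7 and 70.1 TPM in lines 66, 67 and 72 (mean 66.0 ± 9.36 TPM). Musk had 47.3, 80.1 and 47.4 TPM (mean 58.3 ± 18.9 TPM), so that line 67 stood above the other lines. Dok7 had 41.1, 42.1 and 36.4 TPM (mean 39.9 ± 3.02 TPM). Of these genes, Musk varied most and Dok7 least between the lines. Lrp4 had 32.5, 41.5 and 41.3 TPM (mean 38.4 ± 5.13 TPM), lowest in line 66. Agrn had 15.3, 13.3 and 19.7 TPM (mean 16.1 ± 3.26 TPM), highest in line 72, and its mean still lay above that of 72.4% of detected genes. Ordered by mean TPM, the genes ran Chrna1, Chrng, Chrnb1, Chrnd, Rapsn, Musk, Dok7, Lrp4, Agrn and Chrne. The ranges over lines overlapped between Chrng and Chrnb1, between Rapsn and Musk, and between Dok7 and Lrp4, so their ranges did not separate these neighbours. Within libraries, Chrng was above Chrnb1 in 3 of 3 lines (mean difference 50.5 ± 42.4 TPM), whereas Rapsn was above Musk, and Dok7 above Lrp4, in 2 of 3. No other neighbours in this order overlapped. The largest step was the one from Agrn down to Chrne.

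The fetal and adult subunits were then compared within each library, the comparison for which the line is the replicate. On the log2(TPM + 1) scale, Chrng exceeded Chrne by 7.70, 7.43 and 7.96 in lines 66, 67 and 72 (mean difference 7.70 ± 0.27, SD, n = 3). Chrne lay below 1 TPM in every line, so the added 1 limits this difference, which was 9.95 with 0.1 added instead. The SD of Chrng alone was also 0.27 on the log2(TPM + 1) scale. The direction was the same in 3 of 3 lines, and the exact sign-flip test gave a two-sided p = 0.25, the smallest value that 3 lines allow. The counts give the bound more directly. Chrng had 27717, 18855 and 26398 counts, set against 6, 5 and 3 counts of Chrne. Chrne thus made up 0.0216% of the summed counts of the pair in line 66 (exact Clopper-Pearson 95% interval 0.00794% to 0.0471%). Its share was 0.0265% in line 67 (0.00861% to 0.0619%) and 0.0114% in line 72 (0.00234% to 0.0332%). The 3 intervals overlap, and they cover counting error only, since no molecular identifiers are named and PCR copies are counted as reads. The count of Chrng was 4620, 3771 and 8799 times that of Chrne in lines 66, 67 and 72, and the TPM ratio was 882, 1544 and 4825.

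The few Chrne counts did not lie on its coding transcripts in every line. In line 66 all 6 counts were assigned to a transcript with a retained intron (Chrne-204) and 0 to a coding transcript. In lines 67 and 72, 3.06 and 2.70 estimated counts were assigned to the coding transcript of 493 codons (Chrne-202), with 1.94 counts on another retained-intron transcript (Chrne-203) in line 67. The coding form of Chrne thus stood at about the limit of 3 counts, and a difference between lines was not detectable at this depth. Of the 31-base words of Chrng and of Chrne, 100% occur in no other matched gene on either strand. The coding sequences of the pair were 68.0% identical over 1430 aligned bases, and those of the 5 subunits between 61.4% (Chrna1 with Chrnb1) and 68.4% (Chrnd with Chrng). A gene on the opposite strand overlaps Chrne (4930544D05Rik) and had at most 1 count in any line. Gm13778 likewise overlaps Rapsn on the opposite strand and had 8, 7 and 2 counts. Of the 31-base words of Rapsn, Dok7 and Agrn, too, 100% occur in no other matched gene on either strand. The share was lowest for Chrna1 (95.9%), followed by Lrp4 (99.4%), Chrnd and Chrnb1 (99.7% each).

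Chrng lies on chromosome 1 (chr1:87204657-87212694 over all GENCODE models, GRCm38, plus strand), 4586 bases downstream of Chrnd (chr1:87190607-87200070, plus strand). Chrne lies on chromosome 11 (chr11:70614883-70619216, minus strand), the chromosome that also holds Chrnb1 (chr11:69784036-69795943, minus strand). The windows around their first transcribed bases are shown because these alternative subunits lay so far apart in level. Capitals mark each CANNTG, the E-box letters that MyoD family factors can bind, and in Chrne also the letters CCGGAA, the core of the N-box known from synapse-specific promoters. Each window runs 5′ to 3′ from 250 bases before the first transcribed base to 50 bases from it, taken from RefSeq (GRCm38.p6). The RefSeq first base of Chrng (87205811) lies downstream of the start of its GENCODE models (87204657), around which no window was searched. The windows lie at chr1:87205561-87205860 (plus) for Chrng and chr11:70619145-70619444 (minus) for Chrne.
Chrng: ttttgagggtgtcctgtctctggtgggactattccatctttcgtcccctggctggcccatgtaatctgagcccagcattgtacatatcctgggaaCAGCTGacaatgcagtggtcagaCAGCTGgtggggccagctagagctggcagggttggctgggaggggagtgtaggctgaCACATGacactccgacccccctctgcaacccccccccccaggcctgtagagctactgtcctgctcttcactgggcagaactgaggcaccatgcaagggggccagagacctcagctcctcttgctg
Chrne: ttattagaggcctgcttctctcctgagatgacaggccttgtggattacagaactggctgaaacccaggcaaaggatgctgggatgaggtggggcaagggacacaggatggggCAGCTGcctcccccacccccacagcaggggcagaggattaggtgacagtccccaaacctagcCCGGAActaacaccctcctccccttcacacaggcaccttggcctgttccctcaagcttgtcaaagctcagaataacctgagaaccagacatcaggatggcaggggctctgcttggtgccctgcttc

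The Chrng window held CANNTG at 3 places, of which 2 read CAGCTG (starting at -155 and -132 from the first transcribed base) and 1 read CACATG (at -75). The Chrne window held it at 1 place, as CAGCTG at -138, and held CCGGAA at -76. Among 32851 RefSeq windows of 300 bases, 72.3% held at least 1 CANNTG and 17.6% at least 3. CAGCTG, which is its own reverse complement and is counted within CANNTG, was present in 16.3% of windows and at 2 or more places in 1.90%. CCGGAA on either strand was present in 14.9%. The windows of the subunits that share every receptor are shown for comparison, at chr2:73580289-73580588 (minus) for Chrna1 and chr11:69795888-69796187 (minus) for Chrnb1.
Chrna1: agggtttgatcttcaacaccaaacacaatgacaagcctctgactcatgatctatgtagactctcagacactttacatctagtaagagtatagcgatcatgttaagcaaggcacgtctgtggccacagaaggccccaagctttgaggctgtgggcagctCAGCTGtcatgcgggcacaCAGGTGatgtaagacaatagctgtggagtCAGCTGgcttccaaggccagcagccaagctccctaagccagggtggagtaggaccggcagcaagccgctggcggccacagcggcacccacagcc
Chrnb1: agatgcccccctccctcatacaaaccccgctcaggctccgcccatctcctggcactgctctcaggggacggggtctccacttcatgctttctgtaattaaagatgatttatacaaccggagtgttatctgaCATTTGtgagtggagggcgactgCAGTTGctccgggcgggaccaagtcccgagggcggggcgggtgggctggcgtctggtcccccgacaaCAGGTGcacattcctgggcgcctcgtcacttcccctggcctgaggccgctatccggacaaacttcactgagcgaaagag

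Chrna1 held CANNTG at 3 places, 2 of them CAGCTG, and Chrnb1 also at 3 places, none of them CAGCTG. The Musk window (chr4:58285712-58286011) likewise held 3, with CAGCTG at 1 of these places. Agrn and Dok7 have 2 windows each, of which 1 held CANNTG at 1 place and the other at 0, none of them CAGCTG. The number of places thus did not separate Chrne from the members at a higher level. The letters CCGGAA were found in the Chrne window and in 0 of the other 8. Windows were given for 7 of the 10 genes, Chrnd, Rapsn and Lrp4 being the others. The letters searched were chosen after the member windows had been looked at, and a match is no measure of binding.

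How far these levels depend on the transcript models was read from the 45 listed transcripts of the 10 genes, all of which had the same length as in GENCODE release M21. The split of reads between transcripts of a gene is an estimate, and its error was not given. Chrna1 has a single listed transcript, of 457 codons. For Chrnb1, the coding transcript of 501 codons held 79.7% of the mean TPM, and the remainder lay in 3 non-coding models, 2 of them with a retained intron (Chrnb1 models of 11.3% and 8.80%). Chrnd-201, of 520 codons, held 73.2% of the Chrnd level and Chrnd-202, a coding model with another start, 12.8%, while Chrnd-203, with a retained intron, held 13.996%. Chrng-201, of 519 codons, held 61.7% of the Chrng level. A further 36.3% lay in short coding models of Chrng that the annotation marks as incomplete at an end, although they took 9.44% of its counts, because TPM divides by a short length. The larger of these were Chrng-203 with 26.8% and Chrng-204 with 9.27%. With complete coding transcripts only, an alternative chosen after these values were seen, Chrng had 164, 120 and 164 TPM and Chrnb1 180, 143 and 135 TPM in lines 66, 67 and 72. Chrng was then above Chrnb1 in 1 of 3 lines instead of 3, so the order of this pair depends on the transcripts counted, and Chrne remained below every other gene.

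**Figure D2:**
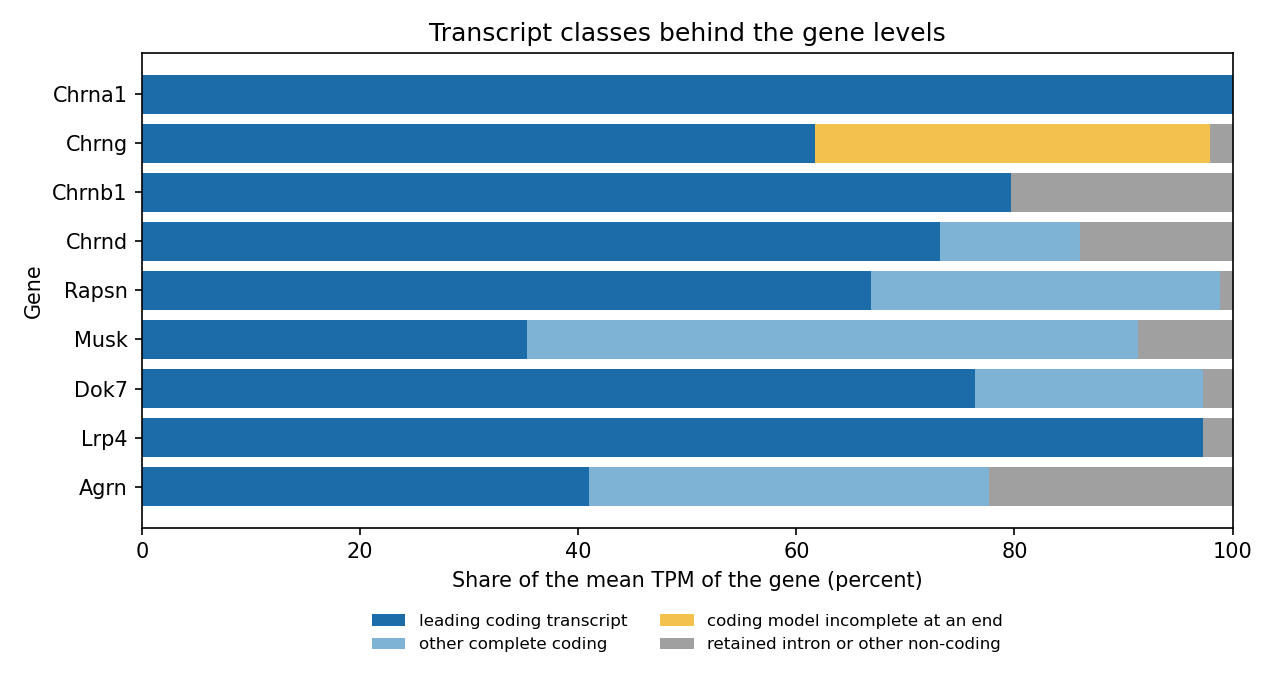
Share of the mean TPM of each gene, in percent, that lies in its leading coding transcript, in other complete coding transcripts, in coding models incomplete at an end and in non-coding models. Chrne is left out because it had 6, 5 and 3 counts. Chrna1 is a single transcript, 36.3% of Chrng lies in incomplete models, and Musk is divided between several coding transcripts.

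The 5 subunits summed to 1126, 1023 and 1063 TPM in lines 66, 67 and 72 (mean 1071 ± 51.8 TPM). The level of Chrna1 was 2.53, 3.30 and 2.96 times the mean of Chrnb1, Chrnd and Chrng (mean ratio 2.93 ± 0.39), where the assembled receptor holds 2 alpha subunits for each of the others. With complete coding transcripts only the ratio was 4.01 ± 0.51. A transcript ratio does not give the ratio of proteins.

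Agrin is made in forms that differ in function, and its transcripts were read separately. Agrn lies on chr4:156165290-156197488 (minus strand). Its upstream start gives the secreted form that binds laminin in the basal lamina, and its downstream start a shorter form anchored in the membrane. The upstream form (Agrn-206, 2034 codons) had 6.36, 5.52 and 7.87 TPM in lines 66, 67 and 72. The downstream forms (Agrn-202 and Agrn-203) together had 5.21, 4.75 and 7.73 TPM. The upstream form thus held 53.1 ± 2.34% of these coding forms, between 50.4% and 55.0% in each line. A further 19.4% of the Agrn level lay in a model with a retained intron (Agrn-205).

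Motor neurons include small exons near the 3′ end of the agrin coding sequence that muscle cells mostly skip. The exons of 24 and 33 bases give agrin its strong action on MuSK, whereas the exon of 12 bases is known for heparin binding. They are shown because their use separates nerve from muscle agrin. They are whole exons on the minus strand of chromosome 4, in coding order, with capitals not used, and they encode 4, 8 and 11 amino acids.
Agrn exon of 12 bases, chr4:156169546-156169557: aaatcccgcaag
Agrn exon of 24 bases, chr4:156168546-156168569: cgagctgaccaatgagatcccagc
Agrn exon of 33 bases, chr4:156167777-156167809: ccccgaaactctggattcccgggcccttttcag

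Among the 4 listed coding transcripts, Agrn-203 alone carries these exons, and it carries all 3. Non-coding models were not compared. It held 4.39% of the Agrn level and was singled out after its values were seen. It had 194, 175 and 486 estimated counts in lines 66, 67 and 72, or 0.457, 0.443 and 1.22 TPM. The coding forms without the exons had 11.1, 9.82 and 14.4 TPM. Transcripts with the exons thus made up 3.95%, 4.32% and 7.80% of the coding forms (mean 5.36 ± 2.13%), highest in line 72. As Agrn-203 uses the downstream start, its share of the downstream forms was 8.77%, 9.34% and 15.7% (mean 11.3 ± 3.87%). No listed coding transcript joins the upstream start to these exons, and none holds some of them but not others, so the use of each exon was not measured on its own. Of the 8 motor neuron markers, Slc18a3 and Mnx1 were at a count of 0 in all lines and Chat at 0, 0 and 1 count, while Tubb3, Nefl and Isl1 had 38.5, 47.5 and 36.8 TPM, 5.82, 3.66 and 2.72 TPM, and 0.672, 1.60 and 1.66 TPM in lines 66, 67 and 72. The part of other cell types in the agrin forms was not tested.

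MuSK transcripts were divided between coding forms with and without 2 short exons on the plus strand of chromosome 4 (Musk at chr4:58285960-58374303). They are shown because they are the exons by which the leading Musk transcripts differ. Both consist of whole codons, 10 and 8 in number.
Musk exon of 30 bases, chr4:58327326-58327355: aagacagagaacctgagcaggacgctaaag
Musk exon of 24 bases, chr4:58356482-58356505: attataaaaaagaaaacataacaa

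Forms with the exon of 30 bases held 30.4%, 28.4% and 26.3% of the coding Musk level in lines 66, 67 and 72 (mean 28.3 ± 2.05%). Forms with the exon of 24 bases held 28.2%, 31.8% and 41.6% (mean 33.9 ± 6.90%), highest in line 72. The leading form, Musk-205 (860 codons), lacks both exons and held 35.3% of the gene level, followed by Musk-202 (868 codons) with 30.0% and Musk-207 (870 codons) with 25.4%. Musk-206, a non-coding model, held 8.68%. The higher Musk level of line 67 was present in each of them. Musk-205 had 18.5, 29.5 and 13.8 TPM, Musk-202 had 11.96, 23.0 and 17.5 TPM, and Musk-207 had 12.9, 20.5 and 11.01 TPM in lines 66, 67 and 72.

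Rapsn and Dok7 also had forms that lack coding exons. Rapsn (chr2:91035620-91045729, plus strand) was led by its form of 412 codons, Rapsn-201, with 66.8% of the gene level. Rapsn-203 lacks an exon of 159 bases and held 20.9%, and Rapsn-202 lacks exons of 123 and 54 bases and held 11.1%. All of these exons are whole codons. For Dok7 (chr5:35056766-35087839, plus strand), the form of 504 codons held 76.4 ± 0.17% (SD, n = 3 lines) and a form of 360 codons, which lacks exons of 231 and 201 bases, held 16.6%. Lrp4 (chr2:91457511-91513779, plus strand) was nearly a single form, with 97.3% of its level in the transcript of 1905 codons.

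The lines were then set against each other. Of the 9 members averaging 1 TPM or more, 0 differed more than 2-fold between their highest and lowest line, where 7.19% of 12528 genes did. At 10 TPM or more on average, the count was again 0 of 9, against 2.47% of genes. With every gene that had a count above 0 in every line, Chrne was past 2-fold (5.66-fold in TPM but 1.98-fold in TMM-scaled counts, from 6, 5 and 3 counts), as were 26% of genes. A line has a single library, so this was counted without a test. The highest line exceeded the lowest 1.69-fold for Musk, 1.48-fold for Agrn, 1.41-fold for Chrng, 1.32-fold for Chrnb1 and 1.31-fold for Rapsn. At 1.5-fold, Musk alone was past the limit, with 19.7% of genes past it, or 9.79% of those with a mean of at least 10 TPM. Chrna1, Rapsn, Musk, Dok7 and Lrp4 were highest in line 67, whereas Chrng and Agrn were lowest there. Line 66 had the highest Chrnb1, Chrnd and Chrng and the lowest Chrna1, Rapsn, Musk and Lrp4. When counts were scaled by edgeR's TMM or DESeq2's size factors, the highest line of each of the 9 genes stayed as stated, while the lowest line of Chrna1 and of Musk became line 72. With complete coding transcripts, Chrng was highest in line 72.

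**Figure D3:**
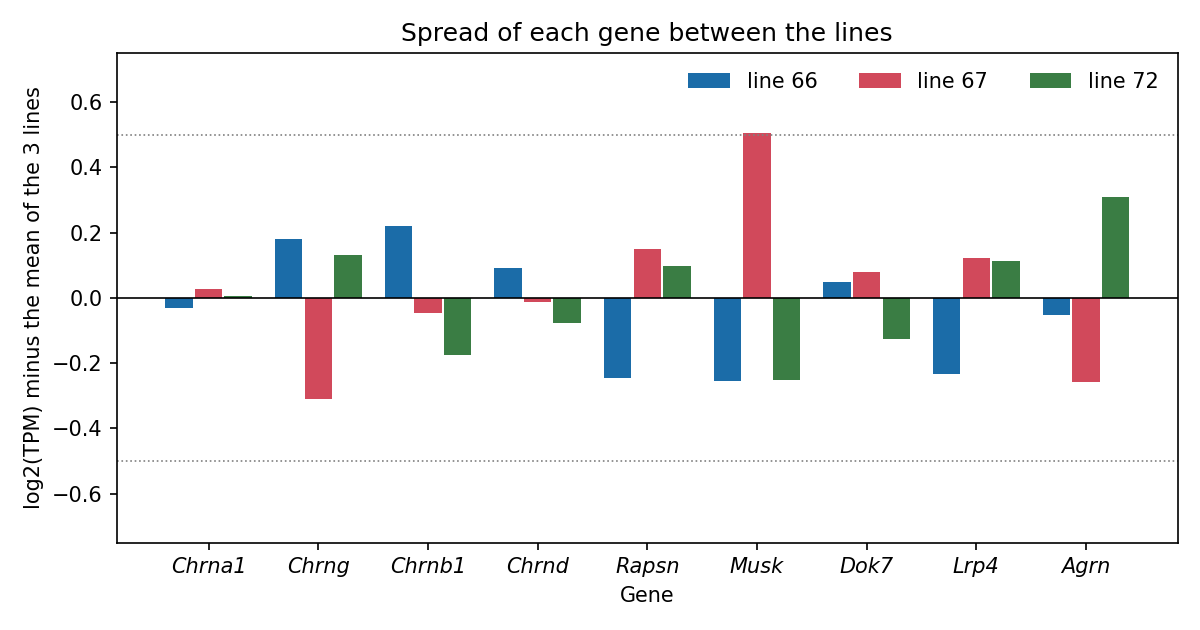
Difference of log2(TPM) in each line from the mean of the 3 lines, for the 9 genes other than Chrne, with dotted lines at 0.5 above and below the mean. Musk in line 67 is farthest from its mean, and no gene spans more than 2-fold between lines.

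Chrnb1 lies on chromosome 11, and the level of that chromosome differed between the lines. Each line was compared with the average of the remaining lines, with the median of all genes set to 0. Over 699 chromosome 11 genes averaging 10 TPM or more, the median log2 difference was 0.33, -0.20 and -0.14 for lines 66, 67 and 72, and for Chrnb1 it was 0.39, -0.07 and -0.33. The part of this shift in the Chrnb1 difference was not tested. Chromosomes 1, 2, 4 and 5, which hold the other members apart from Chrne, had medians between -0.06 and 0.05 in every line. The differentiating markers were lowest in line 66 and highest in line 72, as was Myog (168, 222 and 310.4 TPM).

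The pattern of Chrng over the lines was compared with that of 8427 other genes averaging 10 TPM or more. The measure was the largest difference in centred log2(TPM) in any of the 3 lines. The nearest were Chst15 (0.0033), Hs2st1 (0.0098), Thra (0.010), Def6 (0.020) and Etv6 (0.020). Of the 8427 genes, 111 lay within 0.1 of Chrng, so a pattern over 3 lines near that of Chrng was not particular to the named genes. The nearest member was Agrn at 0.23, followed by Chrnd at 0.30, and the farthest was Musk at 0.82.

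Chrng was next set beside other genes that have a fetal and an adult form. On the log2(TPM + 1) scale, the fetal form was higher by 7.70 ± 0.27 for Chrng over Chrne (SD, n = 3 lines for each pair). It was higher by 6.97 ± 0.17 for Myh3 over Myh4, the embryonic and a fast adult myosin heavy chain, whose reads may be shared with other myosin genes. In both pairs the fetal form was higher in 3 of 3 lines. The added 1 limits both differences, because Chrne reached at most 0.307 TPM and Myh4 at most 1.39 TPM. The difference was -0.20 ± 0.15 for Actc1 against Acta1, the cardiac and skeletal alpha actins, with the adult form higher in 3 of 3 lines. It was -0.14 ± 0.29 for Tnnt2 against Tnnt3, the cardiac and fast skeletal troponin T genes, with the fetal form higher in 1 of 3 lines. Actc1 (2.05-fold) and Myh4 (2.06-fold) were over 2-fold apart between lines. Acta1 (350.4, 486 and 588 TPM in lines 66, 67 and 72) was above Chrng in 3 of 3 lines. Tnnt3 (208, 402 and 389 TPM) was above Chrng in lines 67 and 72 and below it in line 66.

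**Figure D4:**
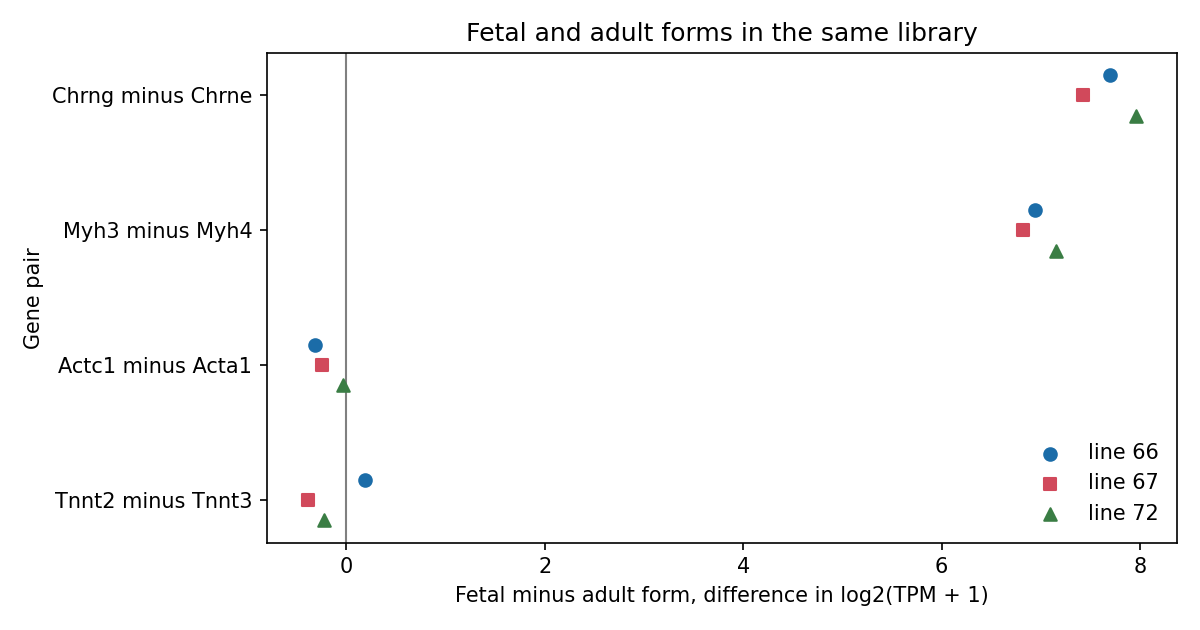
Difference in log2(TPM + 1) between the fetal and the adult form of 4 gene pairs within each library, with 1 point per line. Chrng minus Chrne lies between 7.43 and 7.96, whereas the actin and troponin T pairs lie around 0.

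The nicotinic subunits of neurons and other tissues were low. Of these 11 genes, 0 had at least 1 TPM in every line, against 33.8% of all genes. At most 3 counts in any line were found for 6 of them, and for 40.4% of all genes. Chrna7, which forms receptors without other subunits, was highest with 0.952, 0.356 and 1.03 TPM, from 98, 33 and 98 counts in lines 66, 67 and 72. Chrna5 and Chrnb2 followed with at most 0.153 and 0.0886 TPM. Chrna6 and Chrna9 were at 0 counts throughout, which allows up to 3 counts.

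Genes for proteins that act with MuSK and rapsyn were transcribed in every line. Of 20 genes, 20 had at least 1 TPM in every line (33.8% of all genes) and 0 were over 2-fold apart between lines (7.19%). Hsp90aa1, a chaperone for kinases, was highest at 1162 ± 30.9 TPM (SD, n = 3). Rac1 followed at 387 ± 5.64 TPM and Cttn, the actin regulator cortactin, at 315 ± 31.3 TPM. Pdzrn3, a ligase that acts on MuSK, was lowest at 3.29 ± 1.17 TPM. The genes of receptor folding, assembly and glycosylation were also transcribed, 11 of 12 at 1 TPM or more in every line and 0 over 2-fold apart (33.8% and 7.19% over all genes). Calr, Pdia3 and Canx, which fold glycoproteins in the endoplasmic reticulum, had 955 ± 89.3, 589 ± 53.8 and 546 ± 57.6 TPM. Ric3, a chaperone of neuronal receptors, had at most 17.3 counts in any line.

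Of 11 genes of the synaptic matrix, 7 had at least 1 TPM in every line and 3 of the 9 averaging 1 TPM or more were over 2-fold apart between lines, against 33.8% and 7.19% over all genes. Dag1, the matrix receptor dystroglycan, had 76.0 ± 6.76 TPM, Hspg2, the proteoglycan perlecan, 64.2 ± 1.75 TPM and Nid2, which links laminin and collagen, 63.5 ± 15.8 TPM. Lama5, a laminin chain, had 20.8, 45.6 and 28.3 TPM in lines 66, 67 and 72. Bche, butyrylcholinesterase, had 1.52, 0.729 and 2.27 TPM, and Col13a1, a membrane collagen of the synapse, had 1.13, 1.23 and 2.72 TPM. Ache, the enzyme that breaks down acetylcholine, had 2.56, 1.39 and 1.69 TPM and Colq, its collagen anchor, 0.812, 1.22 and 1.27 TPM. Lama4 was lowest, with a mean of 0.105 TPM.

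The postsynaptic scaffold list had 10 of 10 genes at 1 TPM or more in every line, and Scn4a alone was over 2-fold apart (33.8% and 7.19% over all genes). Prkar1a, a regulatory subunit of protein kinase A, had 432 ± 52.2 TPM, Ncam1, the neural cell adhesion molecule, 150.3, 273 and 215 TPM in lines 66, 67 and 72, and Utrn, utrophin, 35.1 ± 2.24 TPM. Scn4a, the adult muscle sodium channel, was lowest, with 1.06, 1.52 and 2.49 TPM. Ncam1 was thus highest in line 67 and lowest in line 66. Of the 8 neuregulin and ETS genes, 7 had at least 1 TPM in every line (33.8% over all genes). Gabpa, which binds the N-box, had 98.7 ± 14.7 TPM, Etv4 71.7 ± 13.7 TPM and Etv5, an ETS factor needed for synaptic transcription in muscle, 35.7 ± 1.18 TPM. Nrg1, the neuregulin ligand, had 2.19, 2.91 and 5.04 TPM and was over 2-fold apart, alone among the 7 genes averaging 1 TPM or more (7.19% over all genes). Of its receptor genes, Erbb2 had 15.4, 13.1 and 12.3 TPM and Erbb3 6.05, 6.61 and 9.59 TPM in lines 66, 67 and 72, and Erbb4 was lowest of the list with at most 14 counts.

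Transcription regulators of the receptor genes were led by Myod1 (791, 702 and 579 TPM in lines 66, 67 and 72), Myog and Myf5 (109 ± 10.9 TPM). Of 11 genes, 10 had at least 1 TPM in every line (33.8% over all genes). Myf6, a myogenic factor, had 5.84, 3.95 and 2.79 TPM, and Zeb1, a repressor that binds E-box letters, had 10.8, 15.7 and 21.8 TPM. These 2 of 10 genes averaging 1 TPM or more were over 2-fold apart between lines (7.19% over all genes). Dach2, a repressor lost from denervated muscle, was lowest, with at most 8 counts. Myod1 was highest and Myog lowest in line 66, and the reverse held in line 72.

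**Figure D5:**
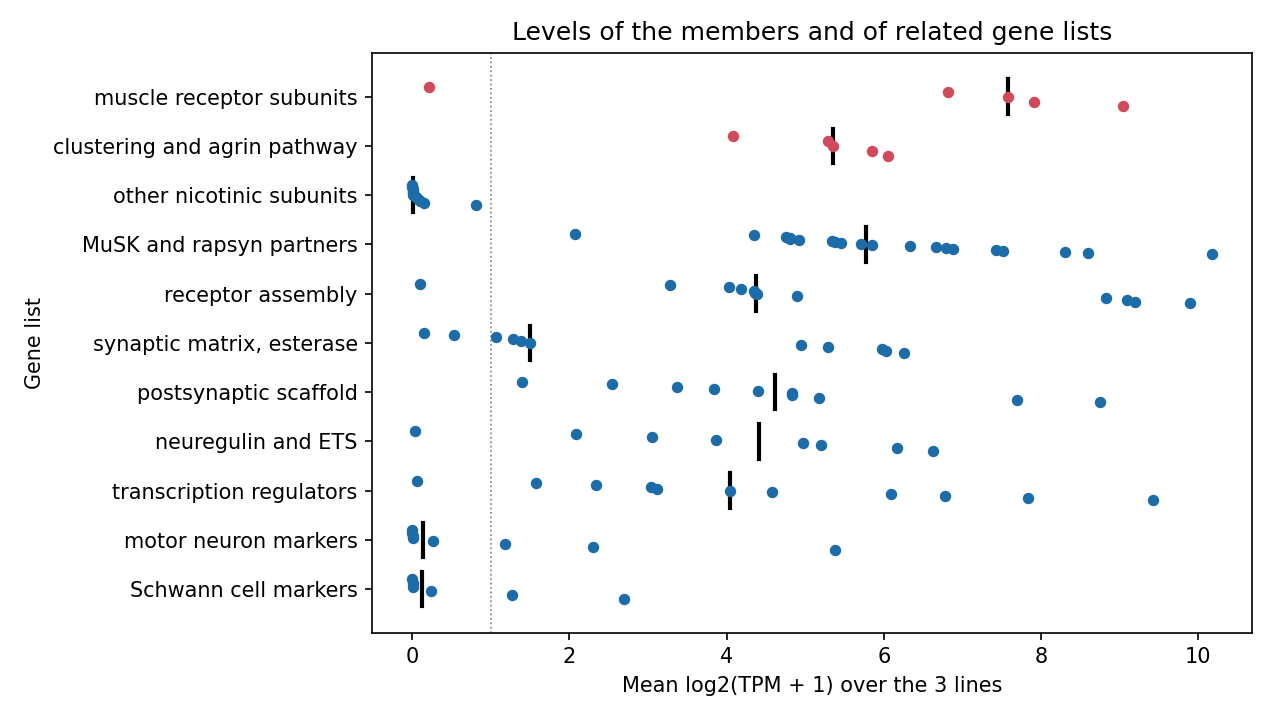
Mean log2(TPM + 1) over the 3 lines for each gene of the member lists (red) and of related lists (blue), with 1 point per gene, a bar at the median of each list and a dotted line at 1, which is 1 TPM. The other nicotinic subunits lie to the left of the dotted line, and 4 of the 5 muscle receptor subunits lie far to its right.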

How the data were processed

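Bulk RNA-seq (TruSeq Stranded mRNA, poly-A enriched) of 3 myoblast lines was used. The deposited tables list 121798 transcripts. Their estimated count is not normalized, and reads shared by transcripts were divided among them by the authors' quantification. The authors also deposited TPM, the estimated count divided by effective length and scaled to 1000000 per library. The submitters' processing notes name bcl2fastq 2.20, fastp 0.20, kallisto 0.46.1 and the build GRCm39. The annotation and the strand setting are not given in the sources used here.

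Transcripts were matched by identifier to GENCODE M21 (GRCm38), from which coordinates, transcript models and the exon sequences were taken. In all 1112 had no match and were left out (0.493% to 0.535% of counts), and 509 had another length. TPM and estimated counts were summed per gene. Counts were rounded for intervals and for edgeR and DESeq2, which gave scale factors only. Promoter windows came from RefSeq. No protein table was used.

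The members, gene lists and tests were chosen with earlier results of these data known. Named were the members, their transcripts with at least 5% of the gene's mean TPM, the 3 highest genes and the lowest gene of each list, list genes over 2-fold apart between lines, the fetal and adult pairs, and the 5 genes nearest to Chrng in pattern. Ache, Colq, Erbb2, Erbb3, Agrn-203, Gm13778 and 4930544D05Rik, the summaries of short exons and agrin starts, and the promoter letters were chosen after the data were seen. Results for 2 list genes are not reported here, and counts are given without them. Coding sequences were aligned globally (match 1, mismatch -1, gap opening -3, extension -0.5). Scaling used edgeR 4.0.16 and DESeq2 1.42.0 in R 4.3.3. Other steps used Python 3.11.15 with scipy 1.17.1, pandas 2.3.3, numpy 2.4.6 and Biopython 1.88, and plots matplotlib 3.10.9. Nothing states that the lines are separate animals, so the p-value of the exact sign-flip test covers only these samples. With 3 differences of the same sign it is 0.25 whatever their spread.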

Additional observations from a re-analysis of the deposited data

How the results depend on the processing

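Chrng exceeded Chrne under each alternative run, by 9.95 with a pseudocount of 0.1, 8.33 with CPM, 7.84 with protein-coding transcripts only and 7.18 with complete coding transcripts only on the log2 scale, and by 7.56 to 7.83 without each line in turn. The exact p was 0.25 with 3 lines and 0.50 with 2, the smallest values possible. The number of genes with at least 1 TPM in every line was 9 under each alternative. The number over 2-fold apart between lines was 0, except that it was 1 at a fold of 1.5 (Musk) and 1 without a filter on low values (Chrne, where 26% of genes passed). Leaving out a line cannot raise that number. Levels of single genes moved by more than 1 SD in 18 cases, 8 with CPM, which is not corrected for length, 5 with complete coding transcripts, 4 with protein-coding transcripts and 1 with the pseudocount. Leaving out 1 of 3 lines cannot move a mean that far. Complete coding transcripts were chosen as an alternative after the data were seen. No paired analysis was possible because there is no second group of samples whose replicates could be paired with these lines. Chrng and Chrne were compared within each library. At this depth, genes near 3 counts, such as Chrne, could not be compared between lines.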
